A study of Mus musculus with 6 samples.

Results

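Chemokine and chemokine receptor transcripts were measured by RNA sequencing in hair germ stem cells sorted from mouse back skin. Members were chosen by gene symbol alone. They are the genes named Ccl, Cxcl, Ccr or Cxcr with a number, together with Cx3cl1, Cx3cr1, Xcl1, Xcr1 and the atypical receptor genes named Ackr with a number. The rule took in 55 of the 46517 genes listed. Of the 55 members, 54 had an expected count above 0 in at least 1 library. The exception was Ccl26, at 0 in all 6 libraries, which allows up to 3 counts per library by counting error. A total of 34 members reached at least 1 TPM in both libraries of a group and are called expressed below. TPM, the authors' relative abundance per gene, is scaled for transcript length and library size, so levels of different genes can be compared on it. Another filter on low counts left 45 members in the statistical test, and the other 10 are described by their levels only.

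Chemokines are small secreted proteins that guide moving cells by binding G protein-coupled receptors, and they are classed as CC, CXC, CX3C or XC by the spacing of their first cysteines. CXC ligands with a glutamate-leucine-arginine (ELR) motif act mainly on neutrophils, whereas most others act on monocytes, dendritic cells or lymphocytes. Atypical receptors bind chemokines without G protein signalling and take them up or store them. In skin, keratinocytes, fibroblasts, vessel cells, Langerhans cells and macrophages all make chemokines, and hair follicles are known to recruit immune cells through them.

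The 3 groups held 2 libraries each, from mice 60 days old and of mixed sex per the labels, 3 days after depilation. Mice of every group, the controls included, carried the Sox9-CreER driver and the R26-lox-stop-lox-YFP reporter. WT carried these alone, LEF1cKO also carried Lef1fl/fl, and LEF1_TCF7dKO (below, the double knockout) carried Lef1fl/fl with Tcf7-/-. Lef1 and Tcf7 encode transcription factors that bind DNA with beta-catenin in Wnt signalling. Lef1fl/fl is deleted only where the Sox9-driven recombinase was active, whereas Tcf7-/- is carried by every cell of the animal. No group with loss of Tcf7 alone was analysed here, so the part of Tcf7 and that of the combined loss cannot be told apart. Cells were gated on YFP and on the surface proteins P-cadherin, Sca-1, CD34 and integrin b1. The comparisons ask which transcripts differ when Lef1 is lost, and when Lef1 and Tcf7 are both lost. Whether the 2 libraries of a group are from different animals is not stated in the labels. The p-values therefore measure spread between the sequenced samples alone, and this may be technical.

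Library totals ran from 40480694 to 63220022 expected counts, and a count of 0 allows up to 0.0741 CPM in the shallowest library. Lef1 transcript had WT levels of 21.4 and 20.4 TPM, LEF1cKO levels of 13.5 and 8.37 and double knockout levels of 9.22 and 9.42. Tcf7 stood at 26.9 and 36.0, 29.3 and 27.8, and 13.7 and 18.0 TPM, in the order WT, LEF1cKO and double knockout with replicate 1 first, which is kept throughout. The 12 hair germ and follicle stem cell genes summed to 11090 to 21540 TPM over the 6 libraries. Most of this came from Krt5 and Krt14, so the sum says little about the other genes of the list or about purity. Of these 12, 5 rose and 5 fell in the double knockout against WT, where 18% of all tested genes rose and 19.6% fell. Among those that fell, Lhx2 stood at 336.8 and 381.0, 402.3 and 368.0, and 114.2 and 198.2 TPM. The genes of the sort moved apart. Cdh3 (P-cadherin) fell, at 133.9 and 130.1, 134.3 and 116.4, and 65.9 and 85.9 TPM. Ly6a (Sca-1) rose, at 26.5 and 14.7, 21.8 and 45.9, and 111.1 and 97.3 TPM, and Cd34 rose, at 13.5 and 8.72, 11.3 and 17.8, and 42.0 and 30.9 TPM. Itgb1 (integrin b1) did not pass. Markers of other cell types were also read, and several of these lists were higher in the double knockout. The 10 macrophage and monocyte genes summed to 63.9 and 18.6 TPM (WT), 163.8 and 157.2 (LEF1cKO) and 471.5 and 393.4 (double knockout). The 8 Langerhans and dendritic cell genes summed to 156.6 and 66.5, 242.4 and 449.3, and 1182 and 1148 TPM, and the 9 fibroblast genes to 324.2 and 148.8, 408.8 and 904.3, and 1964 and 1612 TPM. Among them 10 of 10, 8 of 8 and 9 of 9 rose in the double knockout against WT, beside the 18% of all tested genes. The 9 differentiated epidermis genes summed to 1645 and 1337, 3287 and 3396, and 13580 and 12890 TPM, and 8 of them rose. The part of these cells in the results below was not tested, and in bulk RNA a change in the number of such cells and a change in RNA per cell cannot be told apart.

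**Figure D1:**
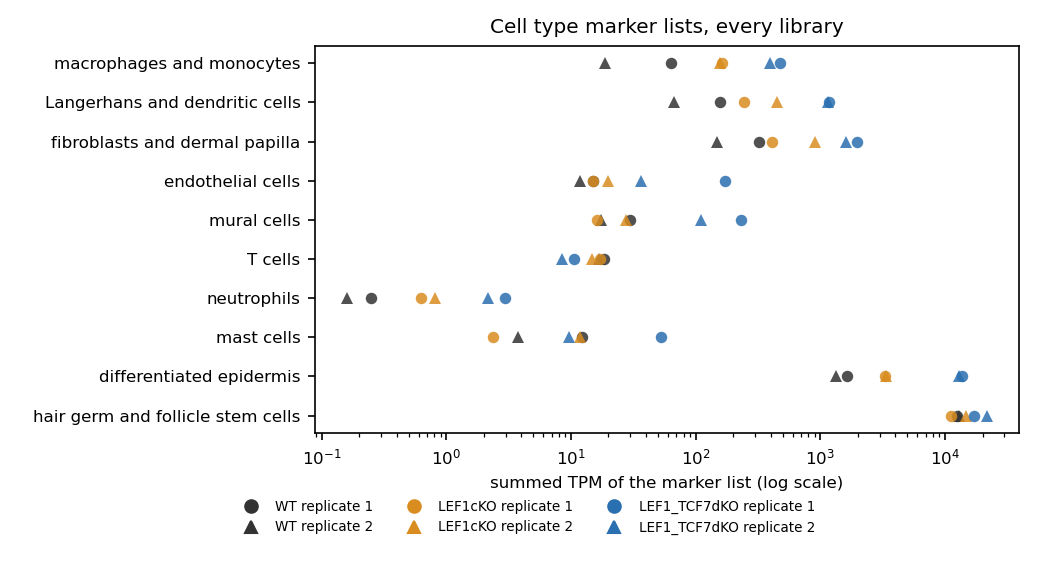
Summed TPM of 10 marker lists (log axis) in each of the 6 libraries, with the group shown by color and the replicate by shape. The macrophage, dendritic cell, fibroblast and epidermis sums are highest in the 2 LEF1_TCF7dKO libraries, where the macrophage sums are 471.5 and 393.4 TPM.

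Chemokine transcripts summed to more in the double knockout than in WT. Summed over the 55 members it gave 429.5 and 373.5 TPM (WT), 476.9 and 534.6 (LEF1cKO) and 712.9 and 840.8 (double knockout), so the 3 groups did not overlap. The number of members at or above 1 TPM was 25 and 20 (WT), 26 and 31 (LEF1cKO) and 34 and 34 (double knockout). Over all genes listed that number was also highest in the double knockout, at 14990 and 14743, 14833 and 15377, and 16032 and 15527. CC ligands, which draw mainly monocytes, dendritic cells and T cells, summed to 85.5 and 37.7 TPM (WT), 142.7 and 180.1 (LEF1cKO) and 313.7 and 362.9 (double knockout). CXC ligands without the ELR motif summed to 280.3 and 277.0, 266.6 and 258.4, and 258.2 and 325.8 TPM, with the double knockout spanning both other groups. The plot of TPM by library shows the double knockout at the right of the other groups for many CC ligands and receptors, and at the left for Cxcl14 and Cxcl9.

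**Figure D2:**
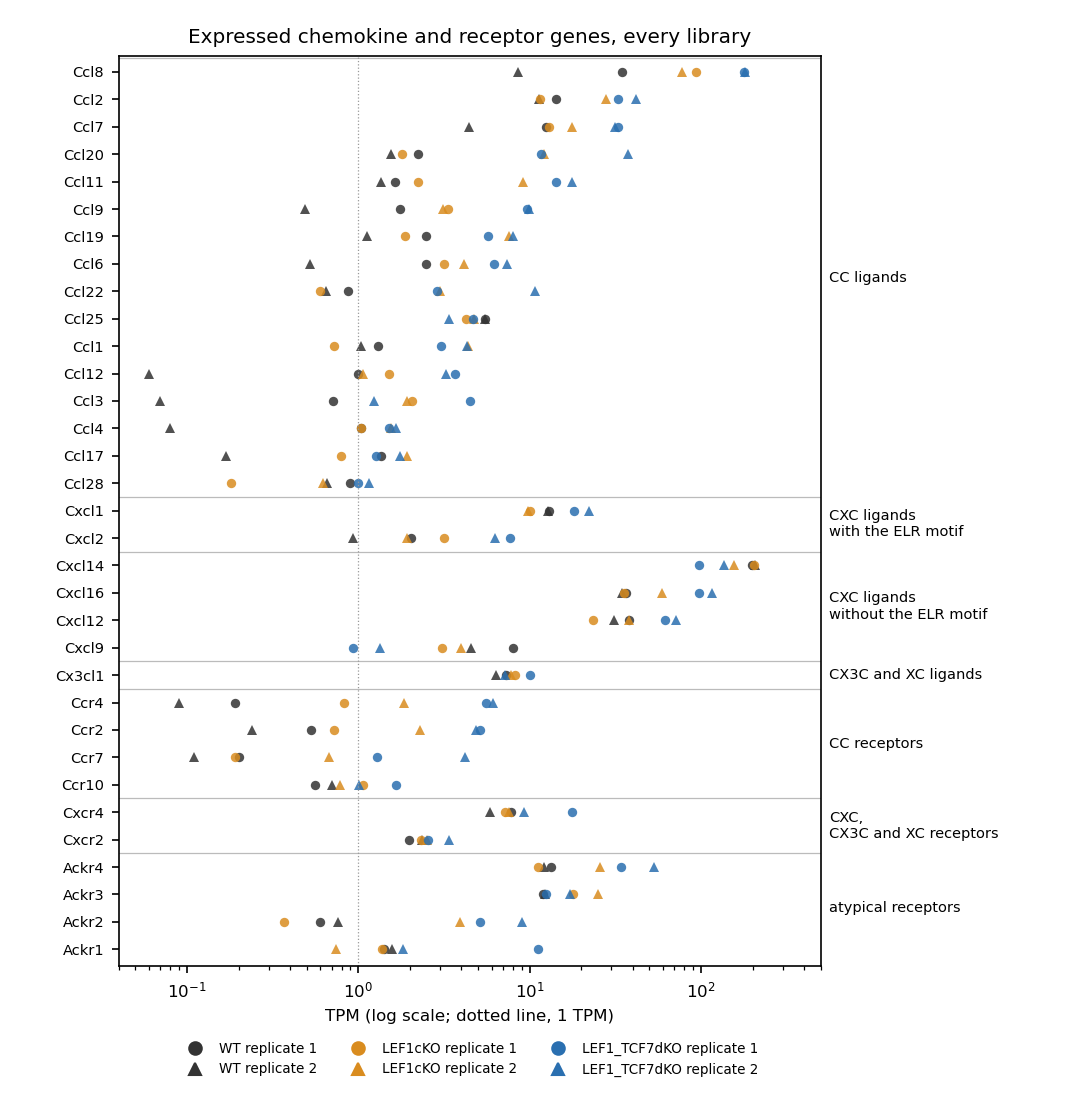
TPM (log axis) of 33 expressed members in each library, grouped by role, with color for the group and shape for the replicate. Ccl8 ranges from 8.57 TPM in WT replicate 2 to 181.3 in LEF1_TCF7dKO replicate 2, while Cxcl14 is highest in WT replicate 2 at 206.3.

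Of the 45 tested members, 20 rose and 2 fell in the double knockout against WT by the edgeR quasi-likelihood test (adjusted p under 0.05). In that comparison 37.6% of all 19640 tested genes were called, 18% higher and 19.6% lower. The median log2 fold change was 1.64 over the 45 members and 0.01 over all tested genes. A gene can pass the filter on low counts through 1 high group alone, so these figures describe the tested members and not the 10 left out. Both double knockout libraries lay above both WT libraries in TPM for 37 members and below them for 4, where 43.4% and 30.7% of all tested genes did so. Over all tested genes, fewer were called in each of the fits named next. The count of called members also depended on which libraries were fitted. It was lower without any 1 of the 4 libraries compared, a fit that leaves 1 sample in a group. Without WT replicate 2 or double knockout replicate 1, the share of tested members called was near the share of all tested genes called. Ccr4, Ccr9 and Cxcl9 kept their call whichever library was left out. These 3 were picked out by that outcome.

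Between the double knockout and LEF1cKO, 5 members rose (Ccr4, Ccr9, Cxcl1, Cxcl12 and Cxcl16) and 1 fell (Cxcl9), where 25.2% of all tested genes were called, 11.2% higher and 14.1% lower. Both double knockout libraries lay above both LEF1cKO libraries for 28 members and below them for 3 (35% and 29.4% of all tested genes). The count of calls was 0 without double knockout replicate 1, 4 without double knockout replicate 2, 1 without LEF1cKO replicate 1 and 16 without LEF1cKO replicate 2. The count over all tested genes moved in the same direction in each of these fits. In LEF1cKO against WT, edgeR called 0 of the 45 members and 0.601% of all tested genes. At an unadjusted p under 0.05 there were 9 members, against 9.58% of all genes. DESeq2 called 1 member, and 3.24% of all tested genes. With WT replicate 1 or LEF1cKO replicate 1 left out, edgeR called 1 member each. The median log2 fold change of the members there was 0.77, and both LEF1cKO libraries lay above both WT libraries in TPM for 17 members and below them for 7 (28.3% and 13.4% of all tested genes). The comparisons share libraries, so each is given by its own values.

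**Figure D3:**
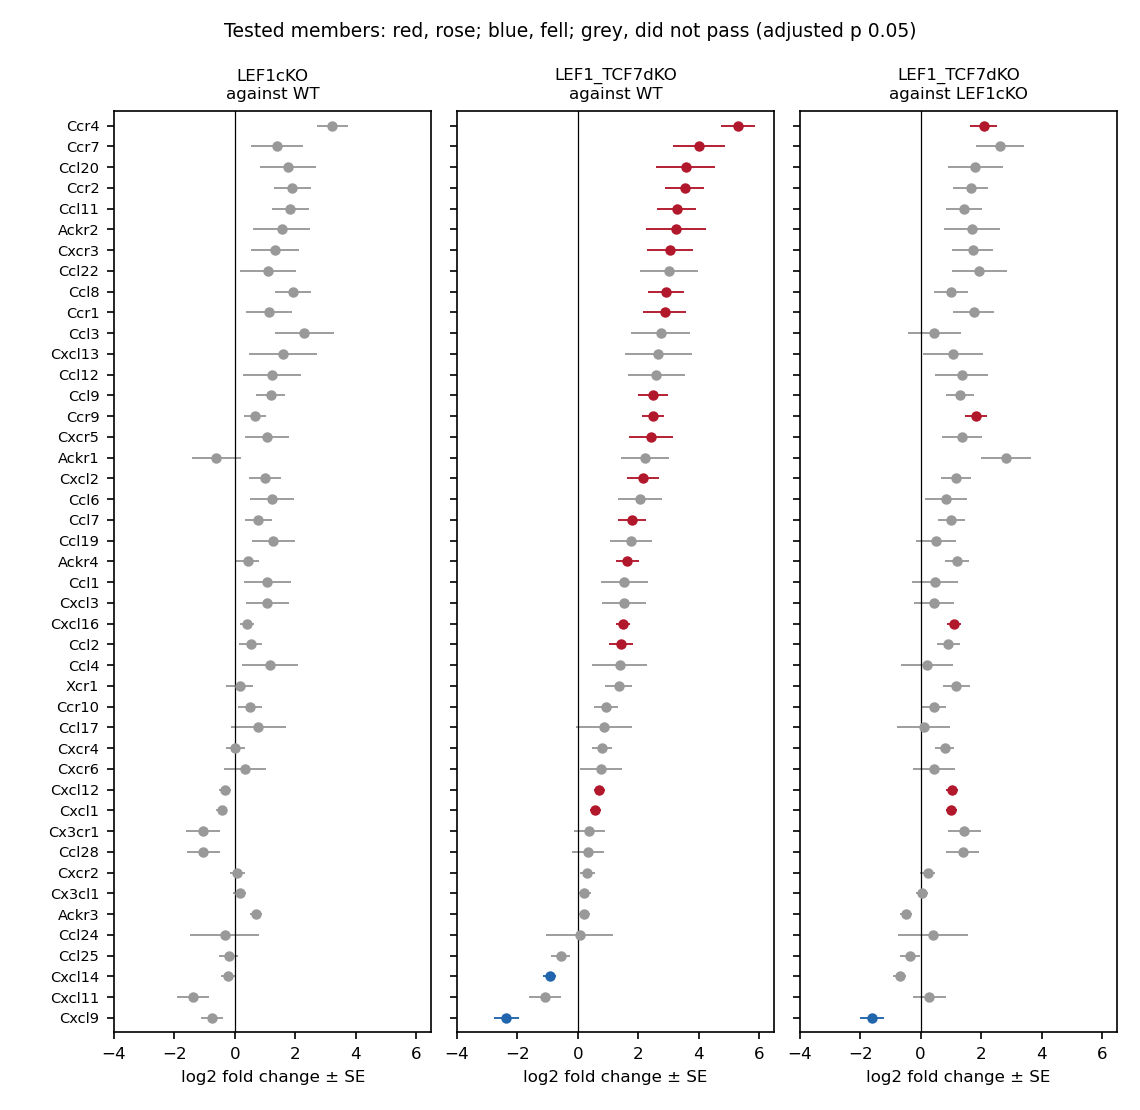
Log2 fold change ± SE of 44 tested members in each comparison, ordered by the value in LEF1_TCF7dKO against WT; red marks a rise, blue a fall and grey a value that did not pass at an adjusted p of 0.05. Ccr4 leads the rises at 5.30 and Cxcl9 the falls at -2.36 in LEF1_TCF7dKO against WT, and every value in LEF1cKO against WT is grey.

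The start regions of the members were read, where available, for words recognized by LEF/TCF factors and by NF-kB. The latter is a transcription factor family that switches on many chemokine genes. RefSeq promoters (GRCm38.p6, from 250 bases before to 50 bases after each start) were found for 40 of the 55 members. Those without one, and so not read, include Ccl2, Ccl7, Ccl11, Ccr7, Cxcl16 and Cxcr5, whose transcripts rose. The LEF/TCF word CTTTGAA, or a form of it that ends in AT, in TA or in TT, occurred on either strand in 27.5% of these members (11 genes) and in 18.9% of 27025 genes. The NF-kB word GGGNNNTTCC, on either strand, occurred in 20.0% of the members (8 genes) and in 6.31% of all genes. The promoters of Cxcl14 and Cxcl9, whose transcripts fell, hold neither word in these windows, and neither do those of Ackr2, Ackr4, Ccr1 and Ccr9, whose transcripts rose. Members that did not pass or were not tested, among them Ccl1, Ccl17, Ccl25, Ccr3 and Cxcl3, also hold a word. A match is a run of letters and not a measured binding site, and the NF-kB word often overlaps its own reverse complement. Printed next as examples are 3 rising genes with a LEF/TCF word (capitals) and 3 with an NF-kB word (capitals), 5′ to 3′ on the strand of the gene.
Ccl8, + strand, chr11:82114935-82115234: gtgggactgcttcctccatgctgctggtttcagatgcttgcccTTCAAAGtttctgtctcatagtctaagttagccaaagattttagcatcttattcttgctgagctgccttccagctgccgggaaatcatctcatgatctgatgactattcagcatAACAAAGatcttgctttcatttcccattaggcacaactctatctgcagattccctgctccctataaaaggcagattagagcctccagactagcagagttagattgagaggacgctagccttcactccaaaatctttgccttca
Cxcl12, + strand, chr6:117168285-117168584: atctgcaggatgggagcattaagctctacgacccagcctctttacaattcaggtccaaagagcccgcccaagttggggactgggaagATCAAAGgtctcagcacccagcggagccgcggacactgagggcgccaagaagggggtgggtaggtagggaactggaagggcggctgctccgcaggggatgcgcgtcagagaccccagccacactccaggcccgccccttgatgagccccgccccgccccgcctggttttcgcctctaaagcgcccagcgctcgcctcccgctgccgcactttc
Ccr4, - strand, chr9:114496495-114496794: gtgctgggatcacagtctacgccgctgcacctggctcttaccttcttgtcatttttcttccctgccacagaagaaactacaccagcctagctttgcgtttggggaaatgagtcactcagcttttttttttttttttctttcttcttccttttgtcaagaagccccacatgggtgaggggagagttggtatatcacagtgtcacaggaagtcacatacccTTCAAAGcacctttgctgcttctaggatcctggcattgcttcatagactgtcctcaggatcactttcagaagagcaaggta
Cxcl1, + strand, chr5:90890995-90891294: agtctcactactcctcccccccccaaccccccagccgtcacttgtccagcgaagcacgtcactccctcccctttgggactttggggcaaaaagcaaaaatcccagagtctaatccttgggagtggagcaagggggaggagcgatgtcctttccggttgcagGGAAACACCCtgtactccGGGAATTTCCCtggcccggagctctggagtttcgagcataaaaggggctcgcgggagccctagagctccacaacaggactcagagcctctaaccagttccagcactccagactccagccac
Cxcl2, + strand, chr5:90903649-90903948: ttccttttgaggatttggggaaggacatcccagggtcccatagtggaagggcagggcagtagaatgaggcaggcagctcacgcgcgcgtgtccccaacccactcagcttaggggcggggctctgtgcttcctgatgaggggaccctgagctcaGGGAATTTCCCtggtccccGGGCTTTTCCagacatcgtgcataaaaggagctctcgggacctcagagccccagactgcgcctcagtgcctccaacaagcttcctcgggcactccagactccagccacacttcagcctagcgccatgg
Ccl20, + strand, chr1:83116516-83116815: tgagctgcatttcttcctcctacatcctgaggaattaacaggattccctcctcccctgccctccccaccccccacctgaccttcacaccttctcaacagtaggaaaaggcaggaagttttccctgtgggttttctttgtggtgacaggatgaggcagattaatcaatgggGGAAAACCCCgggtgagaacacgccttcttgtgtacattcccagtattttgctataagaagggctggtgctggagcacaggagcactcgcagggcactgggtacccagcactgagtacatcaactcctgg
The first LEF/TCF word begins at position -207 from the start in Ccl8, -163 in Cxcl12 and -31 in Ccr4. The first NF-kB word begins at -89 in Cxcl1, -97 in Cxcl2 and -80 in Ccl20.

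CC ligands encoded on chromosome 11 made up much of the higher sum in the double knockout. Ccl8 (ENSMUSG00000009185, chr11:82115185-82116799), a ligand that in mice acts on Ccr8, was the most abundant of the CC ligands that match the symbol rule in the double knockout (coordinates here and below are mm10 gene bounds of GENCODE M21). It had WT levels of 34.7 and 8.57 TPM, LEF1cKO levels of 93.9 and 77.8 and double knockout levels of 177.6 and 181.3. The groups did not overlap, and the LEF1cKO libraries lay between the others. Ccl8 rose by 2.92 ± 0.60 on the log2 scale against WT (adjusted p = 0.0136, 7.57-fold). The call was lost without either double knockout library (highest adjusted p = 0.0626). Its value in LEF1cKO was 1.92 ± 0.58 (adjusted p = 0.338). Without WT replicate 1 that adjusted p was 0.0184, and over all alternatives it ran from 0.0184 to 0.497.

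Next to Ccl8 on chromosome 11 lie Ccl2, Ccl7, Ccl11, Ccl12 and Ccl1. Ccl2, the chief ligand of the monocyte receptor Ccr2, was read at 14.2 and 11.3 TPM (WT), 11.5 and 27.8 (LEF1cKO) and 32.9 and 41.5 (double knockout). LEF1cKO overlapped WT there and the double knockout lay above both. Ccl7, which shares Ccr2 with Ccl2, stood at 12.5 and 4.45, 12.9 and 17.6, and 32.6 and 31.4 TPM. Ccl11 or eotaxin, the eosinophil attractant, stood at 1.63 and 1.36, 2.23 and 9.19, and 14.2 and 17.6 TPM. For Ccl7 and Ccl11 the 3 groups did not overlap. In the double knockout against WT Ccl2 rose by 1.43 ± 0.39 (adjusted p = 0.0318), Ccl7 by 1.78 ± 0.46 (adjusted p = 0.028) and Ccl11 by 3.27 ± 0.64 (adjusted p = 0.0116). The Ccl2 call was lost without any 1 of the 4 libraries compared (highest adjusted p = 0.164). The Ccl7 call was lost without WT replicate 2 or either double knockout library (0.104), and the Ccl11 call without either WT library or double knockout replicate 1 (0.0769). For Ccl11 the LEF1cKO value was 1.83 ± 0.61 (adjusted p = 0.395). Its adjusted p was 0.0457 without LEF1cKO replicate 1, the lowest of a range that reached 1.

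The other genes of this cluster were low. Ccl12, a further Ccr2 ligand, had WT levels of 0.99 and 0.06 TPM, LEF1cKO levels of 1.51 and 1.06 and double knockout levels of 3.65 and 3.25 (2.59 ± 0.94 against WT, adjusted p = 0.0748). Ccl1, a ligand of Ccr8, stood at 1.30 and 1.04, 0.72 and 4.37, and 3.02 and 4.33 TPM (1.54 ± 0.78, adjusted p = 0.171). In both genes the double knockout lay above WT, and neither passed the test.

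A second run of CC genes on chromosome 11 holds Ccl3, Ccl4, Ccl5, Ccl6 and Ccl9. Ccl9, a myeloid cell attractant made by macrophages and Langerhans cells, was read at 1.75 and 0.49 TPM (WT), 3.33 and 3.13 (LEF1cKO) and 9.70 and 9.93 (double knockout). Its groups did not overlap, and it rose by 2.49 ± 0.49 from WT to the double knockout (adjusted p = 0.0125; lost without double knockout replicate 1, 0.0585). Ccl6, its close relative, stood at 2.49 and 0.52, 3.15 and 4.12, and 6.21 and 7.36 TPM and did not pass (2.06 ± 0.73, adjusted p = 0.0689). Ccl3 and Ccl4 encode inflammatory ligands made by macrophages. Ccl3 stood at 0.71 and 0.07, 2.05 and 1.92, and 4.49 and 1.24 TPM (2.74 ± 0.98, adjusted p = 0.0727). Ccl4 stood at 1.03 and 0.08, 1.04 and 1.55, and 1.50 and 1.65 TPM (1.38 ± 0.91, adjusted p = 0.273). For both genes the WT replicates were further apart in fold than the double knockout was from WT replicate 1. Ccl5 was below 1.2 TPM in every library, with its highest value of 1.14 in LEF1cKO replicate 2.

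Ligands of dendritic cells and lymphocytes showed wide gaps between replicates. Ccl20 (chr1:83116766-83119167), a keratinocyte product that attracts Ccr6-positive Langerhans cell precursors and T cells, had WT levels of 2.22 and 1.56 TPM, LEF1cKO levels of 1.79 and 12.2 and double knockout levels of 11.7 and 37.5. LEF1cKO replicate 2 thus lay among the double knockout values. Ccl20 rose by 3.57 ± 0.97 from WT to the double knockout (adjusted p = 0.0326, 11.9-fold), a call lost without any 1 of the 4 libraries compared (highest adjusted p = 0.154). Ccl22, a Ccr4 ligand of dendritic cells, stood at 0.87 and 0.65, 0.60 and 2.99, and 2.87 and 10.7 TPM (3.03 ± 0.96, adjusted p = 0.0512). Ccl17, the other Ccr4 ligand, stood at 1.36 and 0.17, 0.79 and 1.92, and 1.26 and 1.75 TPM (0.87 ± 0.92, adjusted p = 0.49). Both missed the threshold. The double knockout lay above WT for Ccl22 and overlapped WT for Ccl17. Ccl19, which draws Ccr7-positive dendritic cells, stood at 2.48 and 1.13, 1.88 and 7.59, and 5.73 and 7.98 TPM (1.77 ± 0.70, adjusted p = 0.0938). Its level is uncertain, since 52.0% of its 50-base words occur in near-identical copies.

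Ccl25 and Ccl28, further CC ligands known from epithelia, did not pass the test. Ccl25, best known from thymus and gut epithelium, was read at 5.47 and 5.46 TPM (WT), 4.26 and 4.73 (LEF1cKO) and 4.66 and 3.37 (double knockout) (-0.57 ± 0.32, adjusted p = 0.207). Its exons overlap Elavl1 on the other strand, which stood between 22.85 and 38.74 TPM. Ccl28, a mucosal ligand of Ccr10, stood at 0.89 and 0.66, 0.18 and 0.62, and 1.0 and 1.16 TPM (0.35 ± 0.53, adjusted p = 0.639). Ccl24 had its highest value at 0.86 TPM. In all, 6 of 17 tested CC ligands rose in the double knockout against WT and 0 fell, where 18% of all tested genes rose and 19.6% fell.

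Both expressed neutrophil attractants were higher in the double knockout. Cxcl1 had WT levels of 12.9 and 12.8 TPM, LEF1cKO levels of 10.1 and 9.83 and double knockout levels of 18.2 and 22.1, with no overlap between groups and LEF1cKO lowest. It rose by 0.58 ± 0.18 against WT (adjusted p = 0.0457) and by 1.01 ± 0.18 against LEF1cKO (adjusted p = 0.0163). The first call was lost without any library but LEF1cKO replicate 2 (highest adjusted p = 0.243), with no filter and with a replicate block. The second was lost without WT replicate 2, LEF1cKO replicate 1 or double knockout replicate 1 (0.0777). Cxcl2, a second ligand of the neutrophil receptor Cxcr2, stood at 2.02 and 0.93, 3.16 and 1.93, and 7.69 and 6.31 TPM. It rose by 2.17 ± 0.53 from WT to the double knockout (adjusted p = 0.0226; lost without WT replicate 2 or either double knockout library, 0.107). Cxcl3, Cxcl5 and Cxcl15 reached at most 0.30, 0.08 and 0.09 TPM. Of 7 neutrophil marker genes, Ly6g, Retnlg and Ngp were at 0 counts in all libraries, and the list summed to 0.25 and 0.16, 0.63 and 0.82, and 2.98 and 2.16 TPM.

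CXC ligands without the ELR motif moved in both directions. Cxcl14 (ENSMUSG00000021508, chr13:56288643-56296551), made by epithelia at rest, was the most abundant member in every WT and LEF1cKO library. It was read at 197.2 and 206.3 TPM (WT), 203.9 and 156.8 (LEF1cKO) and 97.8 and 135.4 (double knockout). The double knockout lay below both other groups, and LEF1cKO overlapped WT. Cxcl14 fell by 0.93 ± 0.22 on the log2 scale from WT to the double knockout (adjusted p = 0.0215). The Cxcl14 call was lost without either WT library or double knockout replicate 1 (highest adjusted p = 0.108). Its value against LEF1cKO was -0.70 ± 0.22 (adjusted p = 0.0641).

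Cxcl9 (ENSMUSG00000029417, chr5:92321347-92328079), an interferon-gamma target that acts on the T cell receptor Cxcr3, was the other member that fell. It had WT levels of 8.01 and 4.52 TPM, LEF1cKO levels of 3.06 and 3.96 and double knockout levels of 0.93 and 1.34, with no overlap between groups. Cxcl9 was 5.15-fold lower in the double knockout than in WT (-2.36 ± 0.40, adjusted p = 0.00782), and the adjusted p reached at most 0.0436 with a library left out. Against LEF1cKO it fell by 1.61 ± 0.39 (adjusted p = 0.0324). This second call was lost without any library but double knockout replicate 2 (highest adjusted p = 0.119) and with only the 2 groups compared. Its neighbor Cxcl11, also an interferon-gamma target and known as a Cxcr3 ligand, had levels of 0.38 and 0.43, 0.08 and 0.21, and 0.11 and 0.15 TPM. Both knockouts thus lay below WT at a very low level. GENCODE M21 lists Cxcl11 as a polymorphic pseudogene, with exons that overlap Gm2673 on the other strand (at most 0.21 TPM). Its value in the double knockout was -1.10 ± 0.53 (adjusted p = 0.151). Of the 9 T cell markers, 1 rose and 1 fell in the double knockout against WT, where 18% of all tested genes rose and 19.6% fell. The defining gene Cd3e was at or below 0.75 TPM in all libraries. The list summed to 8.43 to 18.6 TPM and was lowest in the double knockout, which rests on Lck, the gene that fell. Without Lck the other 8 markers summed to 6.79 and 3.64, 3.22 and 3.90, and 7.69 and 3.54 TPM.

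Cxcl16 and Cxcl12 rose. Cxcl16 (chr11:70453983-70459984), a membrane-bound ligand of Cxcr6, was read at 36.6 and 34.7 TPM (WT), 35.5 and 59.0 (LEF1cKO) and 97.0 and 116.4 (double knockout). The double knockout lay above both other groups. Cxcl16 rose by 1.50 ± 0.24 against WT (adjusted p = 0.00731, 2.83-fold; lost without WT replicate 2, 0.0545). Against LEF1cKO it rose by 1.10 ± 0.24 (adjusted p = 0.0261), a call lost without any library but LEF1cKO replicate 2 (highest 0.0996). Its exons overlap Zmynd15 on the other strand. Zmynd15 stood at 13.2 and 12.5, 8.66 and 19.4, and 19.6 and 33.4 TPM, and whether the counting used strand is not stated. Cxcl12 (chr6:117168535-117181367), a dermal and stromal ligand of Cxcr4, had WT levels of 37.9 and 31.0 TPM, LEF1cKO levels of 23.5 and 38.2 and double knockout levels of 61.6 and 71.8. It rose by 0.71 ± 0.19 against WT (adjusted p = 0.0301; lost without any 1 of the 4 libraries compared, highest 0.179) and by 1.04 ± 0.19 against LEF1cKO (adjusted p = 0.0174; lost without either double knockout library, 0.0868). LEF1cKO overlapped WT for both genes. The fibroblast marker sum given above was higher in the double knockout as well, and its relation to Cxcl12 was not tested. Cxcl13 and Cxcl17 reached at most 0.80 and 0.26 TPM.

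Of the CX3C and XC ligands, Cx3cl1, or fractalkine, was expressed and did not pass. It was read at 7.32 and 6.37 TPM (WT), 8.20 and 7.73 (LEF1cKO) and 10.0 and 7.18 (double knockout) (0.21 ± 0.21 against WT, adjusted p = 0.477). Xcl1 stayed at or below 0.44 TPM.

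CC receptors, which leukocytes carry, were low in WT. In the double knockout against WT Ccr1, Ccr2, Ccr4, Ccr7 and Ccr9 rose, and Ccr10 did not pass. Beside them, 7 of 8 general leukocyte markers rose, where 18% of all tested genes rose. Among these markers Ptprc (CD45) rose, at 0.91 and 0.29, 1.29 and 2.89, and 9.95 and 6.17 TPM, and the part of leukocyte number was not tested. Ccr4 (ENSMUSG00000047898, chr9:114490316-114504916), a receptor of skin-homing T cells that dendritic cells can also carry, had the largest log2 fold change among the members in that comparison. It had WT levels of 0.19 and 0.09 TPM, LEF1cKO levels of 0.83 and 1.85 and double knockout levels of 5.58 and 6.14, with no overlap between groups. Ccr4 rose by 5.30 ± 0.55 against WT (adjusted p = 0.00342, 39.5-fold) and by 2.08 ± 0.45 against LEF1cKO (adjusted p = 0.0257). The first call kept an adjusted p of at most 0.0282 with a library left out, and the second was lost without LEF1cKO replicate 1 or either double knockout library (highest 0.103). In LEF1cKO against WT its value was 3.22 ± 0.52 with an adjusted p of 0.0857 by edgeR. DESeq2 gave 7.3e-07 and no filter 0.00251 there, in a range over the alternatives that reached 0.338.

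Ccr7 (chr11:99144196-99155077) guides dendritic cells to lymph nodes. It was read at 0.20 and 0.11 TPM (WT), 0.19 and 0.67 (LEF1cKO) and 1.28 and 4.18 (double knockout). Ccr7 rose by 4.02 ± 0.86 against WT (adjusted p = 0.0158; lost without either WT library or double knockout replicate 2, highest 0.0992). Ccr2, the receptor of inflammatory monocytes, stood at 0.53 and 0.24, 0.72 and 2.28, and 5.11 and 4.85 TPM. It rose by 3.54 ± 0.64 (adjusted p = 0.0095; lost without WT replicate 2 or double knockout replicate 1, 0.0591). The double knockout lay above both other groups for Ccr7 and Ccr2.

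Ccr1 and Ccr9 rose without reaching the level called expressed. Ccr1, a receptor of monocytes and neutrophils, had WT levels of 0.09 and 0.02 TPM, LEF1cKO levels of 0.08 and 0.15 and double knockout levels of 0.50 and 0.35. It rose by 2.87 ± 0.72 against WT (adjusted p = 0.0255; lost without WT replicate 2 or either double knockout library, 0.135). Ccr9 (ENSMUSG00000029530, chr9:123678439-123784330), a gut-homing receptor, stood at 0.10 and 0.16, 0.21 and 0.28, and 1.09 and 0.82 TPM, with no overlap between groups. It rose by 2.48 ± 0.37 against WT (adjusted p = 0.0062, at most 0.0447 with a library left out). Against LEF1cKO Ccr9 rose by 1.83 ± 0.36 (adjusted p = 0.0208; lost without LEF1cKO replicate 1 or double knockout replicate 1, 0.0971). Exons of Ccr9 overlap those of Slc6a20a on the other strand, which stood at 1.36 and 1.09, 1.68 and 2.04, and 9.16 and 7.77 TPM. On its own strand they overlap Gm17200, which stood at 0.45 and 0.51, 0.64 and 0.44, and 1.63 and 0.63 TPM. Ccr9 shares 2.13% of its 50-base words with Gm17200, so some of its reads are uncertain. Ccr10, the receptor of Ccl28, stood at 0.56 and 0.70, 1.07 and 0.78, and 1.67 and 1.01 TPM (0.94 ± 0.40, adjusted p = 0.11). Ccr3, Ccr6 and Ccr8 had at most 0.01, 0.07 and 0.08 TPM and were not tested.

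Among the receptors for CXC, CX3C and XC ligands, the 2 expressed genes did not pass. Cxcr4, carried by leukocytes, vessels and some epithelial progenitors, was read at 7.83 and 5.87 TPM (WT), 7.19 and 7.61 (LEF1cKO) and 17.7 and 9.32 (double knockout) (0.80 ± 0.32 against WT, adjusted p = 0.101). Cxcr2 stood at 1.97 and 2.34, 2.32 and 2.51, and 2.54 and 3.38 TPM (0.31 ± 0.25, adjusted p = 0.357). Both were highest in the double knockout, where the Cxcr4 replicates lay apart. Cxcr3, the receptor of Cxcl9, and Cxcr5, a B cell receptor, rose at low levels. Cxcr3 stood at 0.09 and 0.03, 0.10 and 0.22, and 0.74 and 0.37 TPM (3.05 ± 0.75, adjusted p = 0.0233; lost without either WT library or double knockout replicate 1, highest 0.158). Cxcr5 stood at 0.09 and 0.04, 0.08 and 0.21, and 0.52 and 0.27 TPM (2.42 ± 0.72, adjusted p = 0.0418). The Cxcr5 call was lost without any 1 of the 4 libraries compared (highest 0.228), with limma on log2(TPM + 1) and with a replicate block. Exons of Cxcr5 overlap Bcl9l on the other strand, which stood between 31.5 and 55.6 TPM. Cxcr6, Cx3cr1 and Xcr1 reached at most 0.79, 0.22 and 0.48 TPM and did not pass, and Cxcr1 reached 0.04 TPM.

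All 4 atypical receptors were expressed, and 2 of them rose in the double knockout against WT, where 18% of all tested genes rose. Ackr4 (chr9:104084157-104126933), which scavenges Ccl19 and Ccl25 and is known from keratinocytes, had WT levels of 13.3 and 12.2 TPM, LEF1cKO levels of 11.1 and 25.6 and double knockout levels of 34.0 and 53.3. LEF1cKO replicate 1 lay below both WT libraries and replicate 2 above them. Ackr4 rose by 1.64 ± 0.39 against WT (adjusted p = 0.0214; lost without either WT library or double knockout replicate 2, 0.112). It overlaps Acad11 on the other strand, which stood between 25.8 and 38.7 TPM. Ackr2, a scavenger of inflammatory CC ligands, stood at 0.60 and 0.76, 0.37 and 3.94, and 5.16 and 9.06 TPM. It rose by 3.24 ± 0.99 (adjusted p = 0.0452), a call lost without any 1 of the 4 libraries compared (highest 0.174) and with limma on log2(TPM + 0.1).

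Ackr3 and Ackr1 did not pass. Ackr3, which scavenges Cxcl12, was read at 11.9 and 12.4 TPM (WT), 17.8 and 25.0 (LEF1cKO) and 12.5 and 17.2 (double knockout). Both LEF1cKO libraries lay above all the others. Its value was 0.70 ± 0.20 in LEF1cKO against WT (adjusted p = 0.308) and -0.50 ± 0.20 in the double knockout against LEF1cKO (adjusted p = 0.108). Ackr1, which marks venules and red cells, stood at 1.42 and 1.57, 1.37 and 0.74, and 11.2 and 1.83 TPM (double knockout against WT 2.21 ± 0.79, adjusted p = 0.0728). Double knockout replicate 1 alone was high. The 9 endothelial markers summed to 173.1 TPM there and to 36.4 in double knockout replicate 2. Ackr1 shares 20.4% of its 50-base words with the overlapping gene Cadm3, so its reads are uncertain.

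Several ligands were read far above their receptors in TPM. Cxcl16 reached 116.4 TPM and its receptor Cxcr6 at most 0.79. Ccl20 reached 37.5 TPM and its receptor Ccr6 at most 0.07. Ccl8 reached 181.3 TPM and Ccr8 at most 0.08, and Cx3cl1 reached 10.0 TPM and Cx3cr1 at most 0.22. These ligand transcripts were thus read in sorted cells with almost no transcript of the matching receptor. Pairs with both sides expressed in at least 1 group included Cxcl12 with Cxcr4 and Ackr3, and Cxcl1 and Cxcl2 with Cxcr2. Others were Ccl2 and Ccl7 with Ccr2, Ccl22 and Ccl17 with Ccr4, and Ccl19 with Ccr7. Of these, Ccr2, Ccr4, Ccr7, Ccl17 and Ccl22 met the level called expressed in the double knockout alone. In WT Ccr2 stood at 0.53 and 0.24 TPM, Ccr4 at 0.19 and 0.09, and Ccr7 at 0.20 and 0.11. In the Cxcl9 and Cxcr3 pair the ligand fell and the receptor rose in the double knockout against WT. Cxcr3 reached at most 0.74 TPM, however, and its call was lost in some of the fits given above.

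The make-up of chemokine transcript shifted between groups. Of the members' summed TPM, Cxcl14 made up 45.9% and 55.2% (WT), 42.8% and 29.3% (LEF1cKO) and 13.7% and 16.1% (double knockout). Ccl8 made up 8.09% and 2.29%, 19.7% and 14.6%, and 24.9% and 21.6%. In both double knockout libraries Ccl8 took the first place that Cxcl14 held in the other 4 libraries. Cxcl16 went from 8.52% and 9.30% in WT to 13.6% and 13.8% in the double knockout. Cxcl12 kept a share between 4.92% and 8.83% over all libraries.

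**Figure D4:**
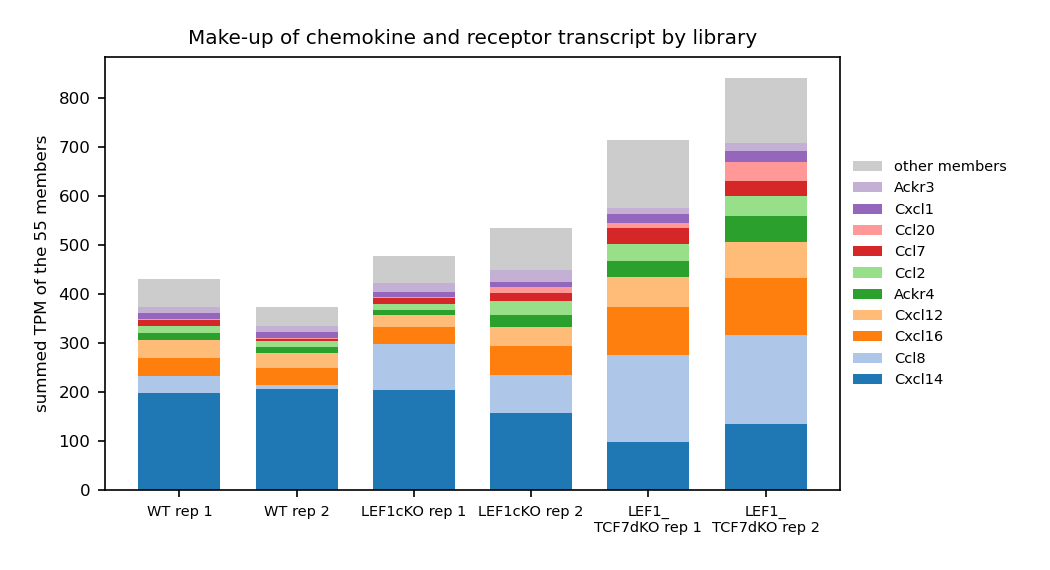
Summed TPM of the 55 members in each library, stacked by gene for the 10 most abundant, with the rest in grey. The Cxcl14 block shrinks from 206.3 TPM in WT replicate 2 to 97.8 in LEF1_TCF7dKO replicate 1, and the Ccl8 block grows from 8.57 to 177.6 TPM between the same libraries.

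The members with the widest gaps between replicates were not all the same in WT and in LEF1cKO. In WT, 12 of the 34 expressed members were at least 2-fold higher in replicate 1 (Ccl3, Ccl4, Ccl6, Ccl7, Ccl8, Ccl9, Ccl12, Ccl17, Ccl19, Ccr2, Ccr4 and Cxcl2) and 0 in replicate 2. The macrophage marker sum was 3.43-fold higher in WT replicate 1 and the dendritic cell sum 2.35-fold. In LEF1cKO, 13 members were at least 2-fold higher in replicate 2 (Ccl1, Ccl2, Ccl11, Ccl17, Ccl19, Ccl20, Ccl22, Ccl28, Ccr2, Ccr4, Ccr7, Ackr2 and Ackr4) and 0 in replicate 1. There the dendritic cell sum was 1.85-fold and the fibroblast sum 2.21-fold higher in replicate 2, while the macrophage sum ratio was 0.96. Ccl17, Ccl19, Ccr2 and Ccr4 belonged to both sets. In the double knockout 2 members were at least 2-fold higher in replicate 1 (Ccl3 and Ackr1) and 3 in replicate 2 (Ccl20, Ccl22 and Ccr7). The relation of these gaps to the markers was not tested.

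**Figure D5:**
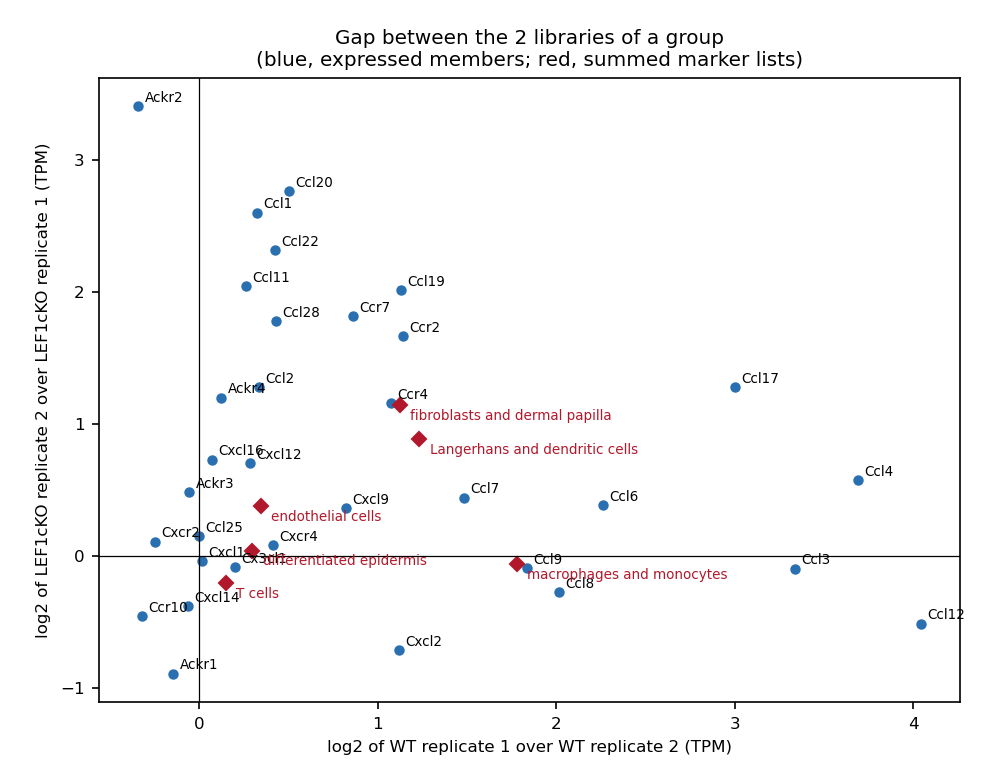
Log2 ratio of the WT replicates (1 over 2, horizontal) against that of the LEF1cKO replicates (2 over 1, vertical) for 33 expressed members in blue, with summed marker lists in red. Ccl12, Ccl4 and Ccl3 lie far to the right and Ackr2, Ccl20 and Ccl1 high up. The macrophage sum, a 3.43-fold gap in WT, lies less far to the right, near Ccl9.

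Chemokine genes whose symbols fall outside the rule also rose in the double knockout. Of 8 tested, 6 rose against WT and 4 against LEF1cKO, and 0 fell, where 18% and 11.2% of all tested genes rose. Pf4, platelet factor 4, which macrophages also make, had WT levels of 1.63 and 0.62 TPM, LEF1cKO levels of 7.07 and 6.74 and double knockout levels of 24.0 and 19.4 (4.22 ± 0.45 against WT, adjusted p = 0.0035). The value of Pf4 in LEF1cKO against WT was 2.62 ± 0.43 (adjusted p = 0.0893). Ccl21a, the Ccr7 ligand of lymphatic vessels, stood at 12.5 and 8.01, 7.82 and 17.2, and 154.2 and 70.3 TPM (3.31 ± 0.51, adjusted p = 0.00671). Cmklr1, the chemerin receptor, had a value of 3.63 ± 0.57 (adjusted p = 0.00673), and Ccrl2, which presents chemerin, 1.22 ± 0.25 (adjusted p = 0.0144; lost without either WT library or double knockout replicate 2, highest 0.0998). Ccl27a, the keratinocyte ligand of Ccr10, stood at 107.3 and 129.2, 64.4 and 295.7, and 338.8 and 571.9 TPM and did not pass (1.73 ± 0.60, adjusted p = 0.0661). Ccl21a and Ccl27a have near-identical copies in the mouse genome, so their levels are uncertain.

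Genes that signal downstream of chemokine receptors moved in both directions. Of 38 tested, 14 rose and 6 fell in the double knockout against WT, where 37.6% of all genes were called, with a median log2 fold change of 0.28. The 20 calls became 9, 7 and 11 without WT replicate 1, WT replicate 2 and double knockout replicate 1. Against LEF1cKO 11 rose and 3 fell, where 25.2% of all tested genes were called. The 14 became 7 calls without either WT library, 5 without LEF1cKO replicate 1, 0 without double knockout replicate 1 and 4 without double knockout replicate 2. In all the fits with a library left out named here, fewer of all tested genes were called too. In LEF1cKO against WT edgeR called 0, with 5 at an unadjusted p under 0.05, where 9.58% of all tested genes stood under it. DESeq2 called 1, and 3.24% of all tested genes. Gnai1, an inhibitory G protein subunit, was read at 11.7 and 12.8 TPM (WT), 10.7 and 24.0 (LEF1cKO) and 59.7 and 64.0 (double knockout), and rose by 2.2 ± 0.33 (adjusted p = 0.00634). Pik3r5, the regulatory partner of the phosphoinositide kinase of leukocytes, rose by 3.38 ± 0.38 (adjusted p = 0.00371). Adrbk2 and Grk6 both encode kinases that silence receptors, and Adrbk2 rose by 3.67 ± 0.57 (adjusted p = 0.0068) while Grk6 fell by 0.74 ± 0.09 (adjusted p = 0.00445). Grk6 stood at 70.8 and 71.8, 69.8 and 69.2, and 46.5 and 47.7 TPM. Each of these 4 calls was kept with any library left out. Gnb1 and Gnb2, the most abundant of the list, encode G protein beta subunits. Gnb1 fell by 0.41 ± 0.10 (adjusted p = 0.0239; lost without any 1 of the 4 libraries compared, highest 0.178, with limma on TPM and with a replicate block), and the value of Gnb2 was -0.25 ± 0.11 (adjusted p = 0.132).

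Genes of NF-kB and of the cytokines that induce chemokines were higher in the double knockout. Of 37 tested, 22 rose and 0 fell against WT, where 18% of all tested genes rose and 19.6% fell, with a median log2 fold change of 0.78. The 22 became 10 without either WT library and 13 without double knockout replicate 2. Against LEF1cKO 16 rose and 0 fell, where 11.2% of all tested genes rose and 14.1% fell. The 16 became 8 without either WT library, 9 without LEF1cKO replicate 1, 0 without double knockout replicate 1 and 4 without double knockout replicate 2. Fewer of all tested genes were likewise called in each of these fits with a library left out. In LEF1cKO against WT edgeR called 0, with 8 at an unadjusted p under 0.05, where 9.58% of all tested genes stood under it. DESeq2 called 3, and 3.24% of all tested genes. Il1rn, the interleukin 1 receptor antagonist, had WT levels of 5.21 and 4.33 TPM, LEF1cKO levels of 8.89 and 9.47 and double knockout levels of 39.1 and 32.3 (2.55 ± 0.14, adjusted p = 0.00108). Tnfaip3, which encodes the NF-kB inhibitor A20, stood at 23.6 and 24.8, 47.7 and 35.1, and 108.3 and 96.1 TPM (1.92 ± 0.18, adjusted p = 0.00314). Map3k14, the kinase of the noncanonical pathway, rose by 1.44 ± 0.14 (adjusted p = 0.0034) and Irak2, of interleukin 1 receptor signalling, by 2.78 ± 0.33 (adjusted p = 0.00406). In these 4 genes both LEF1cKO libraries also lay above both WT libraries without passing the edgeR test. They were named for low p-values in comparisons that share libraries with LEF1cKO against WT. Of the 37 tested, 16 lay above in this way and 1 below, where 28.3% and 13.4% of all tested genes did. Nfkbia, the inhibitor that NF-kB itself induces and the gene of the list with the highest mean over the 6 libraries, stood at 135.0 and 132.0, 201.5 and 139.1, and 272.5 and 340.2 TPM. It rose by 1.06 ± 0.23 (adjusted p = 0.0158; lost without either WT library or double knockout replicate 2, highest 0.0923). Tnfrsf1a, the tumor necrosis factor receptor, was above Nfkbia in both WT libraries and had a value of 0.24 ± 0.10 (adjusted p = 0.10).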

How the data were processed

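Hair germ stem cell RNA was sequenced in 6 libraries, 2 per group. The submitters' processing notes name Bowtie2 2.2.9, RSEM 1.2.30 and the build mm10. The annotation release was not given in the sources used here. Per the labels' protocols, RNA came from sorted cells in TRIzol, and libraries from an mRNA kit read as pairs. Expected count values were estimated by the authors with RSEM, which splits reads shared between genes. TPM values were deposited by the authors from the same runs, and FPKM values, also deposited by the authors, were not used. The TPM table deposited for the series did not differ from the files of single samples. The 92 spike-in rows had 0 counts and were dropped.

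Counts, rounded to whole numbers, were tested by edgeR 4.0.16 (R 4.3.3), using TMM factors (0.962 to 1.04), filterByExpr by group and the quasi-likelihood test. Benjamini-Hochberg adjustment ran over the 19640 genes tested, at 0.05. All 6 libraries were fitted together, with 3 residual degrees of freedom. A gene said to have risen or fallen passed this test, and ± after a log2 fold change is its SE. The test was checked on simulated data. Intervals for counts of 0 cover counting error only.

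The members and lists were chosen with earlier results of these data known. Members that were expressed or passed a test are given in full, except 1 that is counted in totals but not shown on its own. From the pathway lists the genes eligible for naming were, of those that passed in a comparison, up to 4 with the lowest p, and also the 2 most abundant. Not each of them is printed. 1 further CXC ligand gene is not reported here. Alternatives were other scalings, filters, DESeq2 1.42.0, limma 3.58.1 (voom, or log2(TPM + 1) and log2(TPM + 0.1)), a replicate block, only the 2 groups compared, and each library left out. Leaving out a library left 1 sample in its group, which is assumed to vary as the other groups do. Gene positions and 50-base words came from GENCODE M21 and promoters from RefSeq.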

Additional observations from a re-analysis of the deposited data

How the results depend on the processing

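The count of called members moved with the processing, while no called member changed sign under any alternative. In LEF1cKO against WT 0 members were called, and 1 with no filter or by DESeq2. Leaving out 1 library gave 0 to 1. In the double knockout against WT 22 were called, and 20 to 27 under the other scalings, filters and tools (27 by DESeq2), with 5 to 26 when 1 library was left out. Between the double knockout and LEF1cKO 6 were called, against 12 with no filter, 13 by DESeq2 and 10 with limma on log2(TPM + 1), and 0 to 16 when 1 library was left out. Shares of all tested genes moved as well. In LEF1cKO against WT they were 1.34% with no filter and 3.24% by DESeq2. In the double knockout against WT they were 23.4% with no filter, 45.9% with a filter of 1 CPM and 41.8% by DESeq2. Between the double knockout and LEF1cKO they were 17.4% with no filter, 33.2% by DESeq2 and 23.5% with limma on log2(TPM + 1). The cause of these changes was not tested. Over all genes, 4952 were called in that comparison, and 1 without double knockout replicate 1.

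Replicate numbers did not pair the samples: same-numbered libraries correlated at -0.042, 0.056 and -0.028 in their deviations from the group means. With a replicate block 0, 21 and 7 members were called in the 3 comparisons, and 0.407%, 32.8% and 18.5% of all tested genes. The calls of Cxcl1 and Cxcr5 in the double knockout against WT were lost with it. Of the calls in the double knockout against WT, 16 of 22 held under every alternative that kept all 6 libraries or both groups compared whole, 2 more (Ccr1 and Cxcr3) held under the others and were not tested with a filter of 1 CPM, and 3 of 22 held under each leave-out. Of those against LEF1cKO, 5 of 6 and 0 of 6 did. With log2(TPM + 0.1) the median of all genes shifted to 0.13 in the double knockout against WT. Rises made up 37.3% of all calls in LEF1cKO against WT, 58.6% by DESeq2 and 17.8% with log2(TPM + 1). Depth limits the members below 1 TPM, whose calls rest on few reads.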
